A study of Mus musculus with 100 samples.

Results

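The data describe Tet1, Tet2, Tet3 and Tdg, the 3 genes of the TET dioxygenases and the gene of thymine DNA glycosylase, chosen by their symbols, and they are 4 of the 25965 genes in the expression table. The data are 18 RNA-seq libraries, 3 biological replicates for each of 6 groups. Female MEFs (embryonic fibroblasts) came from a single F1 embryo at mid-gestation. Its mother was C57BL/6J (BL6) and carried the i4F doxycycline-inducible OSKM cassette, and its father was CAST/EiJ (CAST). F KSR2 and F KSR4 are female and M KSR3 and M KSR5 male induced pluripotent stem cell lines of the same cross, each expanded from 1 colony picked after 12 days of doxycycline and kept on feeders in Knockout Serum Replacement (KSR) medium with LIF, a medium that the study describes as holding vitamin C. All 4 lines therefore carry the cassette, as do the MEFs, and the male lines have no MEFs of their own sex here. TX 2i ESCs are the TX1072 line, female BL6/CAST embryonic stem cells grown in serum with LIF and the 2 inhibitors CHIR99021 and PD0325901, so that the iPSCs and the ESCs differ in origin, sex for the male lines and medium, and these cannot be told apart. Each pluripotent group is 1 line or clone, and the MEF libraries share a single embryo. In comparisons of groups, p-values measure the spread between cultures of a group, not the spread between embryos or lines. The comparison of female and male lines took the 6 libraries of each sex as 1 set, so its p-values treat cultures of the same line as independent.

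TET enzymes oxidise 5-methylcytosine to 5-hydroxymethylcytosine and on to 5-formylcytosine and 5-carboxylcytosine, with oxygen, iron(II) and 2-oxoglutarate as requirements and vitamin C as an aid to their activity. TDG cuts out the formyl and carboxyl bases, and base excision repair then puts an unmodified cytosine in their place, which is active demethylation. Tet1 and Tet2 are known as the TET genes of naive mouse pluripotent cells, and Tet3 as that of the oocyte, the zygote and many somatic cells. The study asked whether genes of methylation and demethylation differed in level between iPSCs of the 2 sexes, which the comparison of female and male lines addresses.

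All 4 genes lie on autosomes of GRCm38. Tet1 (ENSMUSG00000047146) spans chr10:62804570-62899118 on the minus strand, Tet2 (ENSMUSG00000040943) chr3:133463679-133544390 on the minus strand, Tet3 (ENSMUSG00000034832) chr6:83362373-83441678 on the minus strand, and Tdg (ENSMUSG00000034674) chr10:82629828-82650799 on the plus strand. The regions before their start sites differ in CG content, the sequence that DNA methylation and TET enzymes act on, and the 3 Tet stretches are shown. Each is 250 bases, read 5′ to 3′ from the RefSeq genome GRCm38.p6 on the minus strand before the exons at a RefSeq start site of the gene, and capitals mark every CG. The stretch lies 188 bases from that start for Tet1, 309 for Tet2 and 0 for Tet3, and the start need not be that of the longest isoform.
Tet1, chr10:62887513-62887762: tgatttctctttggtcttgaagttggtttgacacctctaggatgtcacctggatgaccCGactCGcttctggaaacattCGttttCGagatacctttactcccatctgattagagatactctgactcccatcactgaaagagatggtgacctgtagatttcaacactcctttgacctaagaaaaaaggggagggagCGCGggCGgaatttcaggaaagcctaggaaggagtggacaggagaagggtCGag
Tet2, chr3:133544700-133544949: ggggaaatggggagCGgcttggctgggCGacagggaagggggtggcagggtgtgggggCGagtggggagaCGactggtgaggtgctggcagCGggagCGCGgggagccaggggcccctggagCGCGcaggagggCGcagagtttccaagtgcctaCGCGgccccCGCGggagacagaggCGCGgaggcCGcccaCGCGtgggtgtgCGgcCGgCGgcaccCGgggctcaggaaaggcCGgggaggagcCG
Tet3, chr6:83441679-83441928: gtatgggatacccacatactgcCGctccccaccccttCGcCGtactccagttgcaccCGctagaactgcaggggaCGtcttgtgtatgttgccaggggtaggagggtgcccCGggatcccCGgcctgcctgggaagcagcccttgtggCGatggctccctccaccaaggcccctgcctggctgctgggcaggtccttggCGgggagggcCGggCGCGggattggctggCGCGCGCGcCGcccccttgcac
The Tet1 stretch held 8 CGs and was 47.6% G or C, the Tet3 stretch 17 CGs and 69.6%, and the Tet2 stretch 25 CGs and 75.6%. Among 32851 RefSeq promoters read over the same length, the median was 6 CGs, and 57.0%, 76.5% and 89.3% of them held fewer CGs than Tet1, Tet3 and Tet2, respectively. The octamer bound by POU factors such as Oct4 (ATGCAAAT, both strands) was in none of the 3 stretches and in 1.60% of promoters, while the GC box (GGGCGG, both strands) was in all 3 and in 32.7% of promoters. The Tdg stretch, not shown, held 16 CGs and was 54.8% G or C, and it held neither of these motifs. Of the promoters, 74.6% held fewer CGs than Tdg. The 3 Tet windows lie inside introns of longer isoforms, annotated by GENCODE for Tet1 and by RefSeq for Tet2 and Tet3, and no methylation or binding was measured in them here. The part of CG content or motifs in the levels was not tested.

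Libraries held 13183036 to 17921280 reads on genes. Levels are given in the deposited unit, log2 RPM, where RPM are reads scaled to a common total per library. In that unit a gene with no read in a library is set at 0.9 read. Summed levels in RPM and RPM per kilobase use another scale, recovered reads as a share of the library's reads on genes. So do ratios between libraries of a group, and the lower bounds for genes without MEF reads. The factor between these scales differs by library. Of 8 pluripotency markers, 8 had a level above 0 in every pluripotent library and 0 to 1 in the MEFs, whose summed level was 1.52 to 2.51 RPM against 4257 to 8492 RPM in the pluripotent libraries. The 12 fibroblast markers summed to 24927 to 37828 RPM in the MEFs and 20.2 to 204 RPM in the pluripotent libraries, the highest being M KSR5 replicate 3. The other library that stood apart was F KSR4 replicate 2, in which the pluripotency gene Tdgf1 was at 6.96 log2 RPM against 8.32 to 9.62 in the other pluripotent libraries. Scaling by the median of ratios in place of total reads lowered the median difference of all genes between pluripotent groups and MEFs by 0.18 on the log2 scale (from 0.21 to 0.03), and raised that between female and male lines by 0.10 (from -0.11 to -0.01).

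Tet1, which encodes a TET enzyme with a CXXC domain, was the gene that differed most between fibroblasts and pluripotent cells. Its level was 2.23, 1.71 and 1.56 log2 RPM in the MEFs, from 56 to 77 reads. F KSR2 was at 9.34, 8.68 and 7.87, and F KSR4 at 8.54, 7.23 and 6.80. M KSR3 was at 8.68, 8.39 and 8.28, M KSR5 at 9.38, 8.96 and 8.33, and TX 2i ESCs at 7.93, 7.50 and 7.66. All 15 pluripotent libraries stood above all MEF libraries, and the female lines spread more widely than the male lines. These ratios were taken on shares of the reads on genes, not on the log2 RPM values above. The highest library of F KSR4 was 3.33 times the lowest and that of F KSR2 2.95 times. The ratio was 2.09 in M KSR5 and 1.36 in M KSR3. By group mean the order was M KSR5 (8.89 ± 0.53, SD, n = 3), F KSR2 (8.63 ± 0.73), M KSR3 (8.45 ± 0.20), TX 2i ESCs (7.70 ± 0.22), F KSR4 (7.53 ± 0.91) and MEFs (1.83 ± 0.36).

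Tet2, whose protein lacks the CXXC domain, rose less from a higher start. The MEFs were at 3.75, 4.09 and 3.12 log2 RPM, from 165 to 334 reads. F KSR2 was at 7.19, 6.45 and 6.66, and F KSR4 at 6.56, 5.95 and 4.62. M KSR3 was at 6.91, 6.98 and 6.77, M KSR5 at 7.05, 6.42 and 6.91, and TX 2i ESCs at 6.91, 6.34 and 7.21. Again no pluripotent library reached down to the MEFs, the nearest being F KSR4 replicate 3 with 365 reads. The means of M KSR3 (6.89 ± 0.11, SD, n = 3), TX 2i ESCs (6.82 ± 0.44), M KSR5 (6.79 ± 0.33) and F KSR2 (6.76 ± 0.38) lay close together, and that of F KSR4 (5.71 ± 0.99) lay below them.

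Tet3, the Tet gene with the highest level per length in the MEFs, went the other way. The MEFs were at 5.52, 5.26 and 4.93 log2 RPM, from 582 to 753 reads. F KSR2 was at 3.56, 3.92 and 3.72, and F KSR4 at 4.15, 2.42 and 2.83. M KSR3 was at 3.44, 3.26 and 3.23, M KSR5 at 3.28, 3.57 and 3.13, and TX 2i ESCs at 4.27, 4.36 and 3.73. All 15 pluripotent libraries lay below all MEF libraries, and after the MEFs the highest mean was that of TX 2i ESCs (4.12 ± 0.34, SD, n = 3), followed by F KSR2 (3.74 ± 0.18), M KSR5 (3.33 ± 0.22), M KSR3 (3.31 ± 0.12) and F KSR4 (3.13 ± 0.91). F KSR4 replicate 2 held 97 Tet3 reads, the fewest of any library.

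Tdg, the glycosylase, had the narrowest range of the 4 genes. The MEFs were at 4.77, 4.88 and 4.43 log2 RPM, from 411 to 579 reads. F KSR2 was at 5.95, 6.22 and 6.21, and F KSR4 at 6.14, 5.29 and 5.26. M KSR3 was at 6.17, 5.82 and 5.88, M KSR5 at 5.98, 6.01 and 5.81, and TX 2i ESCs at 5.64, 5.53 and 5.78. All 15 pluripotent libraries were above the MEFs, and the means ran from F KSR2 (6.13 ± 0.15, SD, n = 3) through M KSR3 (5.96 ± 0.19), M KSR5 (5.93 ± 0.11) and TX 2i ESCs (5.65 ± 0.13) to F KSR4 (5.56 ± 0.50). RefSeq lists pseudogene copies of Tdg, and how reads that match several places were counted is not given in the sources used here, so part of its reads may come from or go to those copies.

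**Figure D1:**
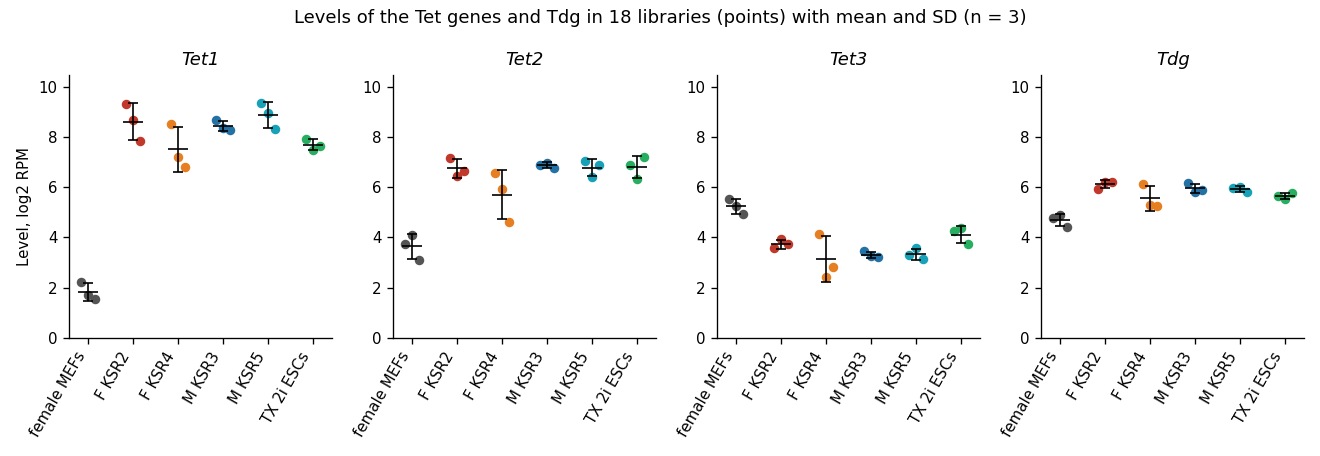
Level in log2 RPM (vertical axis) of Tet1, Tet2, Tet3 and Tdg in each of the 18 libraries by group (horizontal axis), with points for libraries and bars for the mean and SD of 3. Tet1, Tet2 and Tdg are higher in all 15 pluripotent libraries than in the MEFs, Tet3 is lower in all 15, and F KSR4 has the widest spread for all 4 genes.

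Between the pluripotent groups and the MEFs, Tet1 rose by 6.41 on the log2 scale (SE 0.31, adjusted p = 4.25e-12 by limma, adjusted over all 14632 genes tested), or 84.8-fold (95% interval 54.3 to 133). Tet2 rose 7.69-fold (5.01 to 11.8, adjusted p = 7.47e-08) and Tdg 2.22-fold (1.75 to 2.82, adjusted p = 5.48e-06). Tet3 fell 3.28-fold (2.23 to 4.83, adjusted p = 1.52e-05). Most genes differed in this comparison, with 74.6% of all genes tested past the threshold of 0.05, made up of 42.1% higher and 32.5% lower in pluripotent cells, so that 4 calls of 4 genes say little about them beyond their sizes and directions. Each of the 5 pluripotent groups taken alone against the MEFs gave the same 4 directions and passed the threshold for all 4 genes. In these fits 67.0% of genes passed for F KSR2, 65.8% for F KSR4, 67.6% for M KSR3, 67.9% for M KSR5 and 66.5% for TX 2i ESCs. The rise of Tet1 ran from that of F KSR4 (51.7-fold, 29.1 to 92.0) to that of M KSR5 (133-fold, 75.0 to 237). The fall of Tet3 ran from that of TX 2i ESCs (2.17-fold, 1.32 to 3.58) to that of F KSR4 (4.30-fold, 2.61 to 7.08), while F KSR2, whose Tet3 came nearly all from maternal chromosomes, as the allelic reads described further on show, fell 2.83-fold (1.72 to 4.67). Whether these falls and rises differ between lines was tested in the pairs of pluripotent groups, since all 5 share the same MEF libraries.

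Among the 10 pairs of pluripotent groups, 1 passed the threshold in limma for Tet1, 1 for Tet2 and 0 for Tet3 and Tdg, and limma-voom on recovered reads gave the same counts. Tet1 was 2.29-fold lower in TX 2i ESCs than in M KSR5 (1.29 to 4.06, adjusted p = 0.0432), a pair in which 18.2% of genes passed. Tet2 was 2.26-fold higher in M KSR3 than in F KSR4 (1.30 to 3.93, adjusted p = 0.0486), a pair in which 13.1% of genes passed. Both lay just under the threshold, and neither pair was of neighbours in the order of group means, so that no pluripotent group differed past the threshold from the next in order. Over all 15 pairs, those with the MEFs included, 6 passed for Tet1 and Tet2 and 5 for Tet3 and Tdg, and without F KSR4 replicate 1 the count was 9 for each of the 4 genes. At an unadjusted p under 0.05 the count was 5 of the 10 pluripotent pairs for Tet1, 4 for Tet2, 3 for Tet3 and 2 for Tdg. F KSR4, which is in many of these pairs, had the widest replicate spread for all 4 genes.

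Against TX 2i ESCs, the 4 KSR-iPSC lines together had a higher mean of Tet1 and a lower mean of Tet3. In limma 0 of the 4 genes passed the threshold, in a comparison where 23.0% of genes did, with 2 at an unadjusted p under 0.05 and 1, Tet3, past it with limma-voom. Tet3 was 1.67-fold lower in the KSR-iPSCs (log2 difference -0.74, 95% interval -1.31 to -0.17, adjusted p = 0.0567), with 10 of 12 KSR-iPSC libraries below the lowest TX 2i library. The Tet3 call turned with the setting, passing, among other settings, with limma-voom on recovered reads (adjusted p = 0.0408), with median-of-ratios scaling (adjusted p = 0.0478) and without F KSR4 replicate 1 (adjusted p = 0.0030) or F KSR4 replicate 2 (adjusted p = 0.045). Tet1 was 1.60-fold higher (0.68, 0.02 to 1.33, adjusted p = 0.132), with 9 of 12 libraries above the highest TX 2i library and 2 below the lowest. Tdg was 1.18-fold higher (0.24, -0.11 to 0.59, adjusted p = 0.326), again with 10 of 12 libraries above all TX 2i libraries and 2, from F KSR4, below them. Tet2 was 1.22-fold lower (-0.28, -0.92 to 0.35, adjusted p = 0.547), with 2 of 12 libraries below the lowest TX 2i library. Markers of other cell types moved with this comparison: 4 of 6 primitive endoderm markers were higher in the KSR-iPSCs, by 1.49 to 5.54 on the log2 scale, and their summed level was 53.0 to 493 RPM in KSR-iPSC libraries against 87.6 to 108 RPM in TX 2i ESCs, where 4 of the 6 were above 0. Of 12 fibroblast markers 4 were higher and 1 lower in limma, and 0 higher and 1 lower with limma-voom, with sums of 20.2 to 204 RPM against 48.3 to 68.0 RPM. The part of these cells in the Tet levels was not tested.

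Between female and male KSR-iPSCs 0 of the 4 genes passed the threshold in limma, 0 had an unadjusted p under 0.05 and 0 passed with limma-voom, while 2.87% of all genes passed in limma. Tet1 was 1.51-fold lower in the 6 female than in the 6 male libraries (log2 difference -0.59, 95% interval -1.34 to 0.15, adjusted p = 0.383) and Tet2 1.52-fold lower (-0.60, -1.27 to 0.06, adjusted p = 0.315). Female libraries ran from 6.80 to 9.34 for Tet1, with a median of 8.21, and male libraries from 8.28 to 9.38, with a median of 8.53. The same ranges for Tet2 were 4.62 to 7.19, median 6.50, in female and 6.42 to 7.05, median 6.91, in male libraries. The mean of F KSR2 alone was near the male mean (8.63 against 8.67 for Tet1, 6.76 against 6.84 for Tet2), and that of F KSR4 was lower (7.53 and 5.71). Without F KSR4 replicate 3 the log2 difference was -0.34 for Tet1 and -0.28 for Tet2. Tet3 differed by 0.12 (-0.47 to 0.70, adjusted p = 0.857) and Tdg by -0.10 (-0.51 to 0.31, adjusted p = 0.814), so that a sex difference of up to 1.62-fold for Tet3 and 1.42-fold for Tdg lies inside the intervals. There are 2 lines of each sex, and sex cannot be told apart from line with so few. The fit treated the 6 libraries of each sex as independent, although they come from 2 lines, which can make its p-values too small. With the means of lines as the units, 4 genes of the table passed in place of 390.

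**Figure D2:**
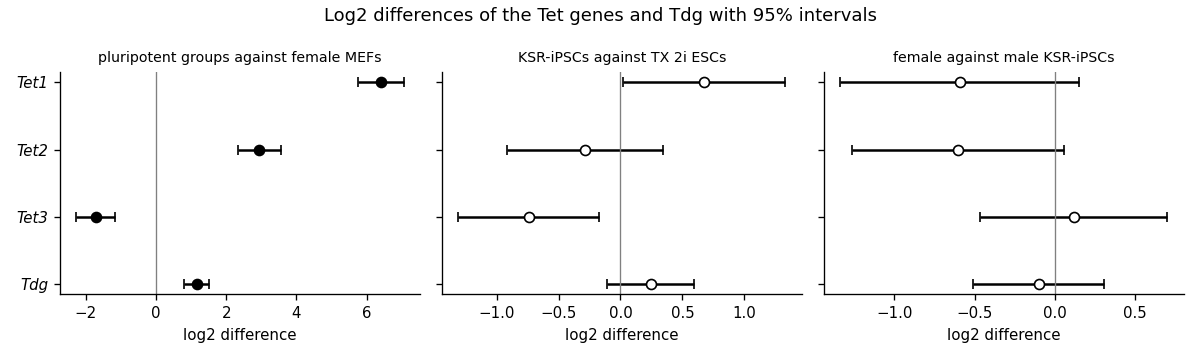
Log2 difference (horizontal axes, each panel with its own scale) of Tet1, Tet2, Tet3 and Tdg in the 3 comparisons, with 95% intervals from limma, filled where the adjusted p is under 0.05. All 4 pass against the MEFs, with Tet3 to the left of 0, and none passes in the other comparisons.

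To compare the 3 enzymes with each other, reads were divided by the length of the principal GENCODE transcript, which is 14369 bases for Tet1, 9179 for Tet2 and 5944 for Tet3. In the MEFs, Tet3 made up 79.5% ± 3.4 (SD, n = 3) of the reads per kilobase of the 3 genes, Tet2 17.4% ± 3.8 and Tet1 3.12% ± 0.41. In the KSR-iPSC lines Tet1 led, M KSR3 being at 62.5% ± 2.7, F KSR4 at 63.6% ± 5.0, F KSR2 at 65.7% ± 9.1 and M KSR5 at 70.1% ± 8.2, and Tet3 made up 3.65% to 7.62%. In TX 2i ESCs the shares of Tet1 (48.3% ± 4.3) and Tet2 (41.5% ± 7.4) were closer together, with 10.2% ± 3.6 for Tet3. The highest Tet1 share of a TX 2i library was 51.0%, below the lowest of a KSR-iPSC library, 55.2%. Summed over the 3 genes, the MEFs were at 8.86 ± 1.76 RPM per kilobase, F KSR4 at 26.3 ± 15.9, TX 2i ESCs at 33.7 ± 5.0, M KSR3 at 44.5 ± 5.5, F KSR2 at 51.2 ± 21.3 and M KSR5 at 54.6 ± 14.6. With the longest Tet3 transcript (10904 bases) its share fell to 68.0% in the MEFs and to 2.02% to 5.83% elsewhere, and the order of the 3 genes in each group was the same. RNA amount does not give enzyme activity, and fewer expressing cells and less RNA per cell cannot be told apart in these bulk libraries.

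**Figure D3:**
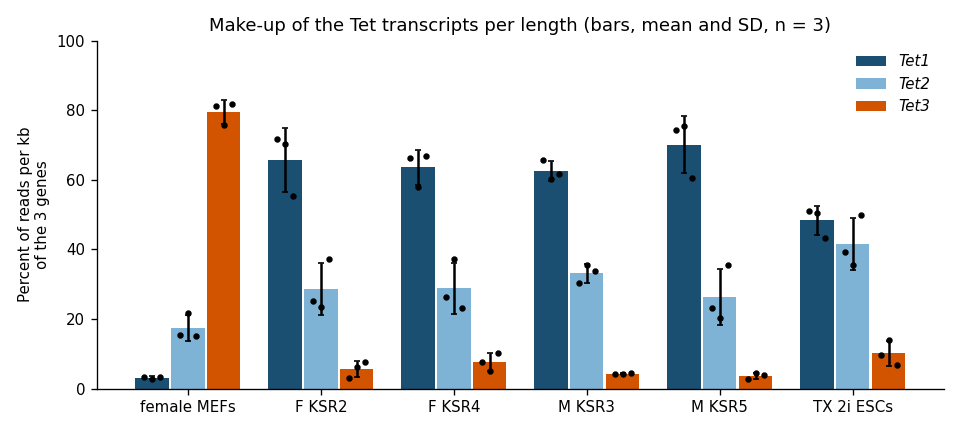
Share (vertical axis, percent) of Tet1, Tet2 and Tet3 in their summed reads per kilobase, by group (horizontal axis), with bars and error bars for the mean and SD of 3 libraries and points for libraries. Tet3 takes 79.5% in the MEFs, while Tet1 takes 62.5% to 70.1% in the KSR-iPSC lines and 48.3% in TX 2i ESCs.

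The allelic reads, which the choice of these genes did not use, gave the parental origin of each transcript, since BL6 is the maternal and CAST the paternal genome of the MEFs and iPSCs. Tet3 in F KSR2 came almost wholly from maternal chromosomes, with 42, 68 and 37 BL6 reads against 1, 0 and 2 CAST reads. Its mean maternal share was 97.5% ± 2.6 (SD, n = 3), against 59.6% ± 1.9 in the MEFs. F KSR4 was at 57.9% ± 8.4, M KSR3 at 63.0% ± 7.5 and M KSR5 at 53.1% ± 4.5, and the BL6 share of TX 2i ESCs, whose parents of origin are not used here, was 45.4% ± 3.0. The whole of chromosome 6 shared this pattern in F KSR2, at 98.6%, 98.6% and 93.2% BL6 in the 3 libraries against 49.3% to 54.0% in the means of the other groups. The paper reports a maternal uniparental disomy of this chromosome in F KSR2, from allelic RNA-seq counts. With 3 libraries against 3, the exact two-sided permutation test against the MEFs cannot go below p = 0.1. Tet3 in F KSR2 reached that value (p = 0.1, adjusted over 20 tests 0.286), which 7 of the 20 tests did in all. The test could therefore not set Tet3 in F KSR2 apart, whatever its allelic counts. The total Tet3 level of F KSR2 did not differ past the threshold from that of any other pluripotent group.

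The other genes were read from both alleles in every group. The BL6 share of Tet1 ran from M KSR5 (53.8% ± 1.3, SD, n = 3) through M KSR3 (55.8% ± 1.0), F KSR2 (60.2% ± 4.4) and F KSR4 (60.3% ± 3.3) to TX 2i ESCs (62.2% ± 1.6), while chromosome 10 as a whole was at 52.3% to 53.6%. In the MEFs only 8 to 24 Tet1 reads per library were allelic, so that its share of 58.3% ± 11 is loosely known. Tdg, also on chromosome 10, ran from 53.4% ± 2.2 in the MEFs to 62.3% ± 5.9 in M KSR3, and its mean lay above that of the chromosome in all 6 groups, by 1.04 to 9.61 percentage points. The mean of Tet1 did so as well, by 0.19 percentage points in M KSR5 to 9.62 in TX 2i ESCs. Tet2 was at 63.3% ± 9.2 in the MEFs and 47.8% to 57.0% in the pluripotent groups, and F KSR4 again had the widest spread, with 44.0%, 62.6% and 36.9% in its libraries from 382, 278 and 84 allelic reads. The 95% Wilson intervals of replicate 2 and replicate 3 (56.8% to 68.0%, and 27.4% to 47.6%) do not overlap; such intervals cover counting error only.

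**Figure D4:**
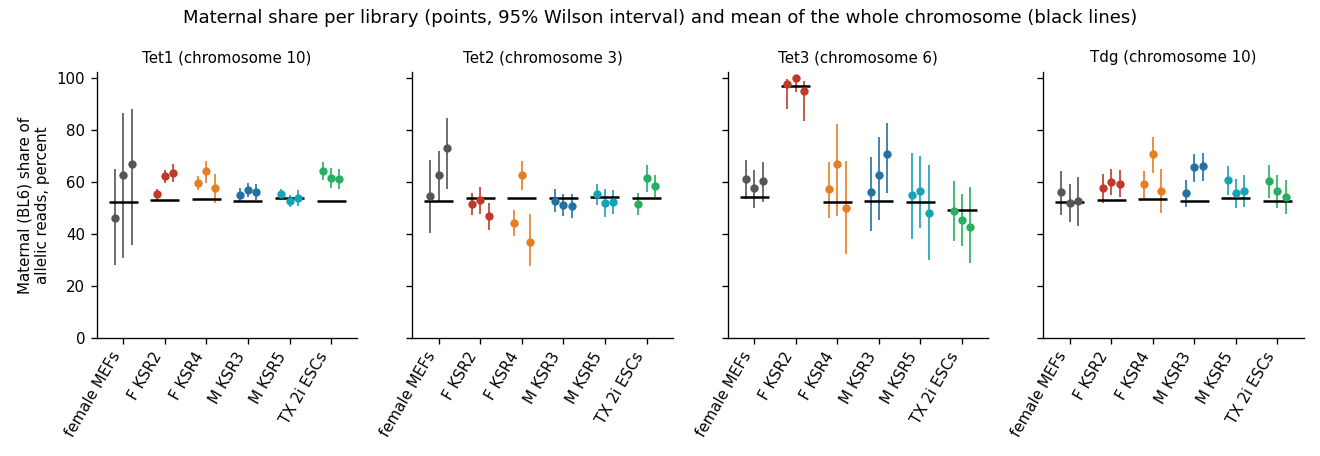
Maternal (BL6) share of allelic reads (vertical axis, percent) of each gene per library by group (horizontal axis), with 95% Wilson intervals, and the mean share of the gene's whole chromosome as a black line. Tet3 in F KSR2 sits at 94.9% to 100% on a chromosome at 96.8%, and all other points lie between 36.9% and 73.0%.

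Around the 4 genes, most of the listed DNA repair genes that complete active demethylation rose, as Tdg did. Of 12 base excision repair genes, 8 were higher in pluripotent cells than in MEFs and 4 did not pass, which is 66.7% past the threshold against 74.6% of all genes tested, with a median log2 difference of 0.99 against 0.21 over all genes tested. The uracil glycosylase Ung rose by 3.85 (SE 0.15, adjusted p = 2.75e-13) and the glycosylase Neil2, which acts with TDG on oxidised bases, by 4.42 (SE 0.55, adjusted p = 1.29e-06) from a level under 1 RPM. Mbd4, a second mismatch glycosylase, rose by 2.12 (adjusted p = 1.60e-08), whereas Smug1 was 0.44 lower (adjusted p = 0.0824) and did not pass. With median-of-ratios scaling 7 of the 12 were higher and 2 lower. Against TX 2i ESCs, the KSR-iPSCs had more Neil2 (1.78, adjusted p = 0.0299) and less Smug1 (-0.77, adjusted p = 0.0217), with 1 of the 12 higher and 2 lower (25.0% against 23.0% of all genes), and with limma-voom the Neil2 call was lost. Between the sexes 0 of 12 passed in limma, where 2.87% of all genes did, and 0 passed with limma-voom. Of the 12, 4 had an unadjusted p under 0.05, and Mbd4 was at -0.28 and Smug1 at -0.19.

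Proteins that bind or recruit TET enzymes held the largest changes and also genes that fell. Against the MEFs, 10 of 12 rose and 2 fell, where 42.1% of all genes rose and 32.5% fell, with a median of 1.69. Sall4 and Lin28a, a zinc finger protein and an RNA-binding protein of pluripotent cells that both associate with TET proteins, had 0 reads in the MEFs and, with 3 reads per MEF library as the floor, pluripotent levels at least 1676-fold and 1030-fold higher. Nanog, a partner of TET1, rose by 11.06 (SE 0.29, adjusted p = 1.71e-15), and Dppa3, which guards methylation from oxidation in the zygote, by 8.06 (SE 0.50, adjusted p = 1.38e-10). Nanog is also one of the pluripotency markers above, so this list is not separate from them. The MEF means of Nanog and Dppa3 were -2.06 and -3.42 log2 RPM, with 1 read at -4.29 to -4.03, so both rises rest on few MEF reads. Ogt, the glycosyltransferase bound by TET2 and TET3, rose by 0.76 (adjusted p = 0.00453). Cxxc4, also called Idax, an antagonist of TET2 protein, fell by 2.83 (SE 0.66, adjusted p = 0.000907) from a level near 1 RPM, and its relative Cxxc5 fell by 0.47 (adjusted p = 0.0234).

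The KSR-iPSCs had less Prdm14 (-1.89, SE 0.26, adjusted p = 7.02e-05), a regulator that recruits TET proteins to germline genes, and less Nanog (-1.78, SE 0.30, adjusted p = 3.82e-04) than TX 2i ESCs, and more Lin28a (1.99, adjusted p = 2.57e-05) and Zfp281 (0.82, adjusted p = 0.00791). Of that list 2 were higher and 3, Cxxc5 among them, lower (41.7% against 23.0% of all genes), with Dppa3 at -0.88 (adjusted p = 0.235), Ogt at -0.31 and Cxxc4 at 1.58 (adjusted p = 0.103). Between the sexes, 1 of 11 tested passed (9.09% against 2.87% of all genes), Prdm14, which was 1.06 higher in the female lines (SE 0.23, adjusted p = 0.0206). The X-linked Ogt was at 0.48 (adjusted p = 0.211) and Dppa3 at 1.67 (adjusted p = 0.114), its lowest group mean being that of M KSR3 (2.43 log2 RPM against 4.83 to 5.52 in the other lines).

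Among genes that supply 2-oxoglutarate, remove its competitors or import vitamin C, 10 of 13 rose against the MEFs and 3 did not pass (76.9% past the threshold against 74.6% of all genes), with a median of 0.57. The vitamin C transporter Slc23a1 was without reads in the MEFs, which puts the pluripotent groups at least 63.8-fold higher. Slc23a1 was also higher in KSR-iPSCs than in TX 2i ESCs (3.03, SE 0.45, adjusted p = 1.49e-04), at 1.82 to 4.15 log2 RPM in the means of the lines and 0.18 in the ESCs, while the other transporter, Slc23a2, was lower (-0.84, SE 0.19, adjusted p = 0.00392). D2hgdh was higher (1.17) and Idh2, a mitochondrial source of 2-oxoglutarate, lower (-0.88) in that comparison, making 2 higher and 2 lower of 13 (30.8% against 23.0% of all genes). The X-linked Idh3g was the gene of this list that passed between the sexes (7.69% of the list against 2.87% of all genes), 1.01 higher in the female lines (SE 0.14, adjusted p = 0.00156).

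Of 6 tested deaminase and Gadd45 genes, 3 rose and 2 fell against the MEFs (83.3% past the threshold against 74.6% of all genes), with a median of 0.26, near that of all genes. Apobec2 rose by 7.22 and Apobec3 by 2.42, Gadd45g fell by 4.07 (SE 0.43, adjusted p = 1.42e-07), and Apobec1 fell by 0.70 (adjusted p = 0.0388). The MEF mean of Apobec2 was -3.72 log2 RPM, with 1 read at -4.29 to -4.03 in these libraries, so its rise rests on few MEF reads. Gadd45a and Gadd45g were higher in KSR-iPSCs than in TX 2i ESCs (1.75, adjusted p = 1.35e-06, and 1.88, adjusted p = 0.00462), the latter call being lost with limma-voom. That is 33.3% of the 6 in limma against 23.0% of all genes. Between the sexes 0 of 6 passed in limma, where 2.87% of all genes did, and 0 with limma-voom, 1 of the 6 being at an unadjusted p under 0.05. Of 6 genes whose proteins bind oxidised methylcytosine, 3 rose and 1 fell against the MEFs (66.7% against 74.6% of all genes), with a median of 0.41, led by Wdr76 (3.28) and Hmces (2.70). Against TX 2i ESCs 0 of 6 passed in limma, where 23.0% of all genes did, 3 had an unadjusted p under 0.05 and 1 passed with limma-voom. Between the sexes 1 passed (16.7% against 2.87% of all genes).

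The enzymes that write and maintain methylation all rose against the MEFs, 5 of 5 where 42.1% of all genes rose, with a median of 2.93. Dnmt3l rose by 10.06, Dnmt3b by 6.15 and Uhrf1 by 2.93. The rise of Dnmt3l also rests on few MEF reads, its MEF mean being -2.36 log2 RPM. Against TX 2i ESCs, Dnmt3a was 1.59 higher in the KSR-iPSCs (SE 0.26, adjusted p = 2.82e-04), with Dnmt3l at 1.01 (adjusted p = 0.18) and Uhrf1 at -0.52 (adjusted p = 0.0518). That list had 1 higher of 5 in limma (20% against 23.0% of all genes), 1 higher and 1 lower with limma-voom, and 3 higher without F KSR4 replicate 2 and M KSR5 replicate 3. Between the sexes 0 of 5 passed in limma, where 2.87% of all genes did, and 0 passed with limma-voom. Of the 5, 1 had an unadjusted p under 0.05, with Dnmt3l at -0.15 and Uhrf1 at -0.29. All of these lists are described by counts, since most genes of the table also differed between MEFs and pluripotent cells.

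**Figure D5:**
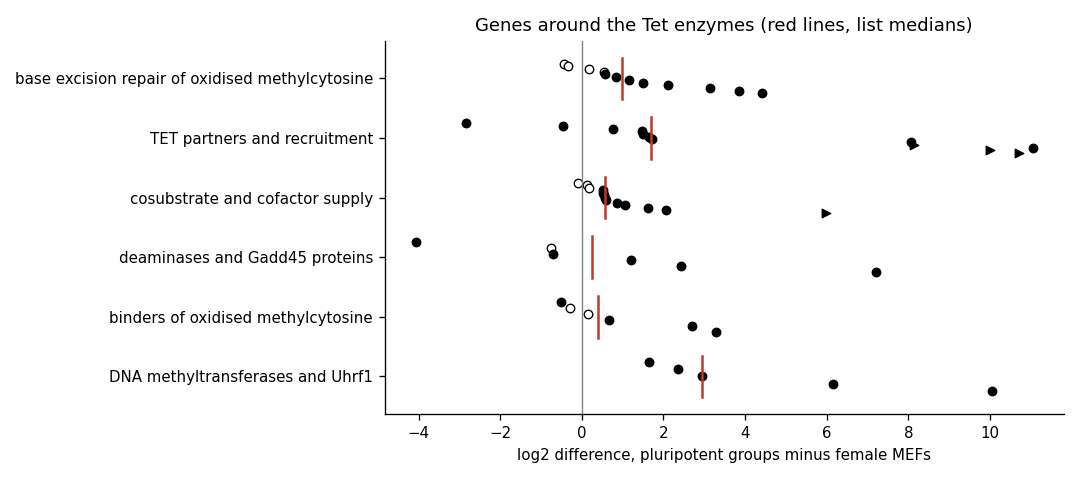
Log2 difference of each gene between the pluripotent groups and female MEFs (horizontal axis) in 6 lists of genes around the TET enzymes (vertical axis), filled where the adjusted p is under 0.05, with list medians in red. Triangles mark 4 genes without reads in the MEFs, drawn at their lower bound, and the largest falls are those of Gadd45g (-4.07) and Cxxc4 (-2.83).

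The genes whose levels ran most like those of the 4 genes were taken by Pearson r, as a description, since the 6 groups and the library depth are shared by all points. Over 18 libraries, Tet1 was closest to Etl4 (r = 0.988), the cohesin gene Smc3 (0.987) and Fam169a (0.986). Tet2 was closest to Myst4, a histone acetyltransferase gene (0.965), Gm340 (0.965) and Pogz (0.965), and Tdg to Supt16h (0.969), a subunit of the FACT histone chaperone, Trim33 (0.968) and the nuclear export gene Xpo1 (0.959). Tet3 was closest to the protease gene Adam10 (0.946), Stau1 (0.944) and Lrrc58 (0.937). Over the 15 pluripotent libraries, the nearest included March6 (0.939) and Etl4 (0.924) for Tet1, Etohi1 (0.934), Specc1l (0.918) and Uba6 (0.917) for Tet2, Qsox2 (0.906), Tmed5 (0.885) and Agap3 (0.876) for Tet3, and Fbxo38 (0.945), Mpdz (0.945) and Hnrnpa2b1 (0.940) for Tdg. Among the 4 genes themselves, over these 15 libraries r was 0.75 for Tet1 with Tdg, 0.65 for Tet1 with Tet2 and 0.20 for Tet1 with Tet3. Over 18 libraries, Tet1 with Tet3 stood at -0.73, against the 0.20 without the MEF libraries.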

How the data were processed

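Tet1, Tet2, Tet3 and Tdg and the lists of related genes were chosen with earlier results of these data known. RNA with a RIN above 9 was made into strand-specific libraries. According to the methods, the authors trimmed reads with Trim Galore 0.6.1, mapped them with HISAT2 2.1.0 to GRCm38, assigned reads to BL6 or CAST by SNPs and quantified genes in SeqMonk, and they deposited log2 RPM values for all reads and for each genome (columns of reads without an informative SNP, 18, were not used). The deposited log2 values hold a gene without reads at 0.9 read, so reads were recovered as whole multiples of the value of 1 read (99.97% to 100% of values within 0.05 of a whole number). Genome 1 was taken as BL6 because 99.6% to 99.9% of allelic X reads in male lines fell to it.

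limma 3.58.1 (R 4.3.3), with an intensity trend, was fitted on the log2 values of genes above 0 in at least 3 libraries of the fit: all 18 libraries for contrasts with MEFs and TX 2i ESCs and for pairs of groups, and the 12 KSR-iPSC libraries for sex. P-values were adjusted by Benjamini-Hochberg over all genes tested, threshold 0.05. edgeR, which the authors used for sex, was not run on the deposited log2 values; limma-voom was run on the recovered reads as an alternative. Fits were tested on simulated data of 14179, 14200 and 14073 genes for the comparisons with MEFs, with TX 2i ESCs and between the sexes: of 100 genes changed 2-fold, 83, 71 and 93 were recovered, of 100 changed 4-fold, 96, 99 and 98, with 15, 14 and 17 false calls. The simulated counts were negative binomial with a dispersion of 0.05 for every gene, independent libraries and no difference between lines. Tet1 and Tet2 spread widely within F KSR4 (SD 0.91 and 0.99 log2 RPM). These recoveries therefore do not say how often a 2-fold change of either gene would be found. Named genes beside the 4 are the 2 largest changes in each direction per list and comparison, 7 pathway genes fixed by role, and the 3 nearest by Pearson r; a few genes that this rule names are not reported here. Hmces and Dcaf1 were matched by older symbols, and March6 by its identifier. Maternal shares used libraries with at least 5 allelic reads. Lengths are from GENCODE M21. Libraries held 13183036 to 17921280 reads on genes, and 17.7% to 19.9% of these were allelic. Same-numbered replicates were not treated as pairs in the main fit. Their correlations of deviations from the group means ran from -0.20 to 0.38, with 13 of 45 over 0.1, and whether they share a batch is not given.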

Additional observations from a re-analysis of the deposited data

How the results depend on the processing

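The differences of Tet1, Tet2, Tet3 and Tdg from the MEFs kept their direction and their call under every alternative run: 1 RPM added before the logarithm, no filter, a filter at a log2 value of 2, limma-voom, median-of-ratios scaling, the replicate block, leaving out each library, and leaving out F KSR4 replicate 2 and M KSR5 replicate 3 together. Against TX 2i ESCs, the Tet3 call was gained with limma-voom (-0.71), median-of-ratios scaling (-0.72) and the replicate block (-0.74, adjusted p = 0.0461), and leaving out 1 library gave -0.94 to -0.62. With the replicate block, Tet1 against TX 2i ESCs also passed (0.68, adjusted p = 0.0161) and its pairs of groups past the threshold went from 6 to 11. The labels give the replicates only a shared number, with correlations from -0.20 to 0.38, and the block changed no other call of the 4 genes in the 3 comparisons. Leaving out 1 library changed the sign of 2 small sex differences (Tet3 -0.028 to 0.32, lowest without F KSR4 replicate 1, and Tdg -0.18 to 0.015, highest without F KSR4 replicate 3) and gave 5 to 9 pairs for each of the 4 genes, the 9 of Tet3 and of Tdg without F KSR4 replicate 1. Genes past the threshold between the sexes were 232 with no filter, 665 without F KSR4 replicate 2 and M KSR5 replicate 3, 1523 with all 18 libraries in the fit, 138 with line as a random effect and 4 with means of lines, against 390, and 187 to 521 without 1 library (250 and 218 without F KSR2 replicate 2 or 3, 197, 203 and 187 without M KSR3 replicate 1, 2 or 3); 216 of the 390 were higher in females, and 287 of 398 with median-of-ratios scaling. Against TX 2i ESCs they were 2125 to 4317 without 1 library (2125 to 2154 without a TX 2i library), against 3372. With at least 20 allelic reads, the Tet1 share in MEFs rested on 1 library (45.8%). The Tet3 share per length moved in all groups with the longest transcript. The cause of these shifts was not tested. Depth limits the allelic shares of Tet3 (24 reads at the lowest) and of Tet1 in the MEFs.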

Other observations

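Replicate 1 held the highest Tet1 level in 6 of 6 groups, which 93 of the 14632 genes tested (0.636%) also showed, while for Tet2 and Tet3 it was the highest in 3 groups and for Tdg in 2. The labels do not say what the replicate number marks. Among the pluripotent libraries, primitive endoderm markers summed to 450 to 493 RPM in M KSR3 against 53.0 to 202 RPM in the others, and the Tet1, Tet2, Tet3 and Tdg levels of the M KSR3 libraries lay within the range of the other lines. Within F KSR4, the library with the lowest Tet1, Tet2 and Tdg (replicate 3) had the highest summed pluripotency marker level of that line (5391 RPM against 4523 and 5008 RPM) and the most fibroblast marker signal (90.7 RPM against 52.0 and 56.3 RPM). The part of these markers in the Tet levels was not tested.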
